A study of Saccharomyces cerevisiae with 14 samples.

Results

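The genes described here carry the mating pheromone signal of haploid budding yeast (Saccharomyces cerevisiae): GPA1, STE4, STE18, STE5, STE12, FUS1, FUS3, FAR1, KAR4 and SST2. They were chosen by name, as the components and best-known targets of the pathway, with earlier results of these data known. Each of the 10 genes was read by 1 probe set, and all 10 were among the 5415 genes tested, of 5449 named on the array. Signal is the deposited MAS5 intensity of a probe set on a linear scale, whose trimmed mean is nearly equal on all 14 arrays.

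The study compared strains altered in SET1, the methyltransferase for lysine 4 of histone H3, or in JHD2, a demethylase for the same residue, to separate effects of Jhd2 that depend on this methylation from those that do not. It used 14 Affymetrix Yeast 2.0 arrays in 3 experiments, each with its own wild type. Cells were harvested from shaken cultures at 30 °C once OD600 had reached 0.6 to 0.7. The set1 deletion (set1::KanMx, with his3-1, leu2-0, met15-0 and ura3-0) had 2 arrays, against 2 of its wild type. The jhd2 deletion (jhd2::KanMX with his3∆1, le2∆0 as the labels spell it, lys2∆0 and ura3∆0) had 3 arrays, against 3 of its wild type. The JHD2 overexpression strain, which also carries jhd2∆::KanMx with his3-1, leu2-0, lys2-0 and ura3-0, had 2 arrays, against 2 of its wild type. Every wild type has the label genotype his3∆1, le2∆0, lys2∆0 and ura3∆0 and is marked TRP+, MET15+ and ADE+, so mutant his3 and ura3 alleles are common to all 6 groups. The promoter that drives JHD2 in the overexpression strain, the growth medium and the number of clones per strain do not appear in the labels. No label gives a mating type or a pheromone treatment. The labels call the replicates biological, and p-values measure the spread between these arrays.

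In haploid yeast a pheromone from the opposite mating type binds a receptor, Ste2 in MATa cells or Ste3 in MATalpha cells. The receptor frees the Ste4-Ste18 beta-gamma dimer from the Gpa1 alpha subunit, and the dimer recruits the scaffold Ste5, on which a kinase cascade activates the MAP kinase Fus3. Fus3 acts on the transcription factor Ste12, which switches on mating genes such as FUS1 and KAR4, and on Far1, which arrests the cell cycle in G1. Sst2 speeds GTP hydrolysis by Gpa1 and so turns the signal off. Most of these genes are transcribed at a basal level in haploid cells of either mating type without pheromone, and many are repressed in diploids.

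The arrays themselves set limits on these values. SET1 gave signals of 1.13 and 3.31 in the set1 deletion, against 395.4 and 575 in its wild type. JHD2 gave 0.23 to 3.41 in the jhd2 deletion, against 119 to 139.8 in its wild type, and 5207 and 6237 in the overexpression strain, against 211 and 226 in its wild type. The receptor gene STE2, defining for MATa cells, gave 2939 to 3355 on the 4 arrays of the SET1 experiment, both its strains, and 42.0 to 161.9 on the other 10. STE3, defining for MATalpha cells, gave 114 to 136 on the 4 and 2045 to 3283 on the 10. The median over 7 a-specific genes was 1008 to 1187 on the 4 arrays and 25.6 to 70.2 on the 10, and the median over 5 alpha-specific genes was 114 to 136 and 2686 to 3792 in the same order. Experiment and mating-type signal thus cannot be told apart. The arrays are called MATa-type and MATalpha-type here for this signal. LYS2 signal (1307 and 1567 in the set1 deletion, against 10.0 and 2.94 in its wild type) and MET17 signal (5.07 and 1.58, against 3528 and 3514) go with the lys2 and met15 alleles in the labels. The set1 deletion and its wild type thus differ at these alleles too. Changes that go with the alleles cannot be told apart from changes that go with the deletion. In the overexpression experiment LEU2 gave 6823 to 7294 on both strains' arrays although the genotypes list leu2-0 or le2∆0. The 3'/5' ratio, a sign of RNA or labelling quality, compares probe sets at both ends of 7 yeast control transcripts. As a mean on the log2 scale it was at least 1.33 on 4 arrays and 0.54 to 0.88 on the other 10. The 4 are both overexpression arrays and the replicate 3 arrays of jhd2 deletion and its wild type, so in the overexpression experiment this ratio moves with the strain.

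All 10 genes were expressed on every array. The lowest of their signals was 17.97 times the background of its array, which was taken as the 95th percentile of the fission yeast probe sets (7.28 to 16.7). FUS3 varied least over the 14 arrays, with a highest signal 1.41 times its lowest, and STE18 varied most, with 3.38 times. STE18, FUS1, KAR4 and SST2 had group means that spanned more than 1 log2 unit (1.15, 1.07, 1.03 and 1.34), which 83.3%, 81.2%, 80.1% and 87.7% of all tested genes did not exceed. Replicates scattered around their group means by 0.09 (FUS3) to 0.54 (STE18) on the log2 scale, where the median tested gene scattered by 0.20. In RNA from whole cultures, fewer cells that express a gene and less RNA per cell cannot be told apart.

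**Figure D1:**
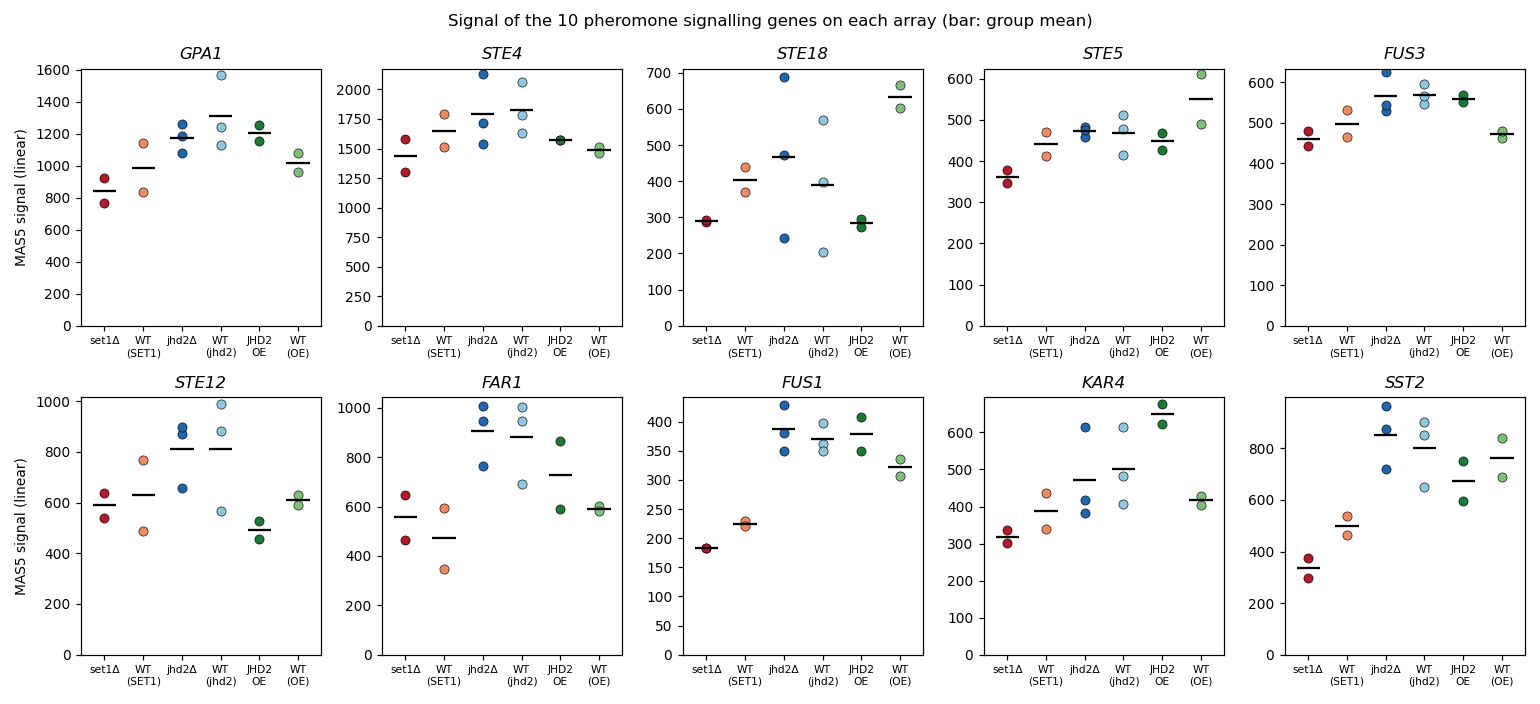
MAS5 signal on a linear axis from 0 (vertical) for each of the 10 genes in the 6 groups (horizontal, each altered strain left of the wild type of its experiment); points are arrays and bars are group means. FUS1 and SST2 lie lower on all 4 arrays of the SET1 experiment than on the other 10, and STE18 spreads from 203 to 687.

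The FUS1 transcript, for a membrane protein of cell fusion and a standard reporter of pathway output, differed between the wild types. FUS1 gave 229 and 221 in the wild type of the SET1 experiment, the one with the MATa signal, against 362, 398 and 351 in the wild type of the JHD2 deletion experiment and 337 and 306 in that of the overexpression experiment. The highest MATa-type wild-type array was below the lowest MATalpha-type one. The difference to the mean of the other wild types was -0.61 ± 0.13 on the log2 scale (SE, 2 arrays against 5), or 0.65-fold, with a limma adjusted p of 0.0409. This SE and p-value measure the scatter of arrays within groups. They do not measure variation between experiments, which cannot be told apart from the mating-type signal here. FUS1 was the 1 member of 10 called in this comparison, where 1.18% of all tested genes were called. The call was close to the threshold. It held under 10 of 28 alternatives, while the difference stayed between -0.44 and -0.72. The adjusted p of the 28 ran from 0.012 to 0.194. The lowest values, 0.012 and 0.0199, came from fits added once the data had been seen. The first left out replicate 3 of the jhd2 deletion and of its wild type. The second took the 3'/5' ratio as a covariate. Among the 28 are the 14 fits that leave out 1 array, of which 3 kept the call. The adjusted p was 0.081 without wild-type replicate 1 and 0.154 without replicate 2 of the SET1 experiment, and 0.0765 and 0.0761 without set1 deletion replicates 1 and 2. It was 0.0844 and 0.0872 without replicates 1 and 2 of the JHD2-experiment wild type and 0.0741 without jhd2 deletion replicate 1. In the overexpression experiment it was 0.0565 and 0.0558 without overexpression replicates 1 and 2, and 0.138 and 0.0756 without wild-type replicates 1 and 2. Quantile normalization gave -0.44 (adjusted p = 0.0768) and median centring -0.50 (adjusted p = 0.0586). Median centring moves the median of all genes by 0.12 in this comparison. The call was also lost with array weights (adjusted p = 0.114), with wild-type arrays alone (0.194) and with the replicate block as a random effect (0.0711). Against the JHD2-experiment wild type alone the adjusted p was 0.0597, and against the overexpression-experiment wild type alone 0.061. Changing the filter or averaging probe sets kept the call but left the FUS1 difference as it was (adjusted p = 0.0408 to 0.0415).

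SST2, the GTPase-activating protein gene that ends the signal, was low on the same arrays. It gave 537 and 462 in the MATa-type wild type, against 851, 901 and 651 in the wild type of the JHD2 deletion experiment and 839 and 687 in that of the overexpression experiment. These groups did not overlap either, yet the difference of -0.64 ± 0.18 did not pass (adjusted p = 0.117). It was called without replicate 3 of the JHD2-experiment wild type, at -0.71 (adjusted p = 0.0486), and with the 3'/5' ratio as a covariate, at -0.67 (adjusted p = 0.0352). FUS1 and SST2 were the 2 members of 10 whose wild-type groups did not overlap, and 11.8% of all tested genes were like this. Both were also lower on all 4 arrays of the SET1 experiment (184 to 229 for FUS1 and 298 to 537 for SST2) than on any of the other 10 (306 to 429 and 595 to 964). Of all tested genes 2.22% were lower in this way.

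The lowest SST2 signals of the series came from the set1 deletion. SST2 gave 374 and 298 in the deletion, against 537 and 462 in its wild type. The groups did not overlap, and the log2 change was -0.58 ± 0.21 (unadjusted p = 0.0172, adjusted p = 0.412), which did not pass. FUS1 gave 184.0 and 183.5 in the deletion, against 229 and 221 in its wild type, a log2 change of -0.29 ± 0.15 (adjusted p = 0.672). Both deletion arrays were below both wild-type arrays for FUS1 too. Neither gene passed in the strains altered in JHD2. SST2 was at 0.09 ± 0.17 in the jhd2 deletion and at -0.18 ± 0.21 in the overexpression strain, and FUS1 at 0.06 ± 0.13 and 0.23 ± 0.15. The change of SST2 in the set1 deletion minus that in the jhd2 deletion was -0.67 ± 0.27 (adjusted p = 1), and the change of FUS1 in the set1 deletion minus that in the overexpression strain was -0.53 ± 0.22 (adjusted p = 0.348).

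Of the G protein subunit genes, GPA1 and STE4 varied less than STE18. GPA1, for the alpha subunit, gave 924 and 768 in the set1 deletion, against 1141 and 837 in its wild type. It gave 1081, 1187 and 1259 in the jhd2 deletion, against 1128, 1246 and 1568 in its wild type. With overexpressed JHD2 it gave 1154 and 1258, against 1081 and 959 in the wild type. Only in the overexpression experiment did the GPA1 groups not overlap, and its log2 changes were -0.21 ± 0.19, -0.15 ± 0.15 and 0.24 ± 0.19 in the 3 strains in this order, none of which passed. STE4, for the beta subunit, stayed between 1299.5 and 2135 over all arrays, with changes of -0.20 ± 0.17, -0.03 ± 0.14 and 0.08 ± 0.17. Between the MATa-type wild type and the other wild types STE4 differed by less than 0.01 (95% interval -0.31 to 0.31).

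STE18, for the gamma subunit that anchors the dimer in the membrane, had the widest spread. It gave 275 and 296 in the overexpression strain, against 665 and 602 in its wild type. The groups were far apart, at 0.45-fold, with a log2 change of -1.15 ± 0.45 (unadjusted p = 0.0263, adjusted p = 0.208) that did not pass. The fit takes its spread from all 6 groups, and replicates were far apart in the JHD2 deletion experiment. There STE18 gave 687, 472 and 243 in the jhd2 deletion, against 570, 396.5 and 203 in its wild type. Within the 3 pairs of the same replicate number the deletion was higher each time, by 0.27, 0.25 and 0.26 on the log2 scale, while the change over the groups was 0.26 ± 0.37. STE18 in the set1 deletion gave 287 and 292, against 438 and 371 in its wild type (log2 change -0.48 ± 0.45). The 4 arrays with 3'/5' ratios of 1.33 or more gave STE18 signals of 203 to 296, and the other 10 gave 287 to 687. With this ratio as a covariate, a fit added once the data had been seen, the change with overexpression was -0.27 (adjusted p = 0.793). The slope on the ratio rests mostly on the JHD2 deletion experiment, where only the replicate 3 arrays have the high ratio. In the overexpression experiment the ratio moves with the strain, so that fit cannot separate ratio from overexpression. In a fit to the 4 arrays of the overexpression experiment alone the STE18 change was called at -1.15 (adjusted p = 0.00158), among 955 of the 5415 tested genes. The change was also called when replicate 3 of the jhd2 deletion and of its wild type were left out (adjusted p = 0.0087). That fit, another added afterwards, called 698 genes.

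KAR4, a transcription factor gene for karyogamy that is itself a pheromone target, was highest on the 4 arrays with the high 3'/5' ratio. It gave 676 and 623 in the overexpression strain, against 405 and 429 in its wild type. These groups did not overlap, at 1.56-fold, with a log2 change of 0.64 ± 0.24 (unadjusted p = 0.0204, adjusted p = 0.195) that did not pass. Replicate 3 of the jhd2 deletion and of its wild type both gave 616, while replicates 1 and 2 gave 384 and 416 in the deletion, against 406 and 481 in the wild type. The 4 arrays with a high 3'/5' ratio thus gave 616 to 676 and the other 10 gave 301 to 481, without overlap. Of all tested genes 4.21% were higher on those 4 arrays in this way. With the ratio as a covariate, in the fit that cannot separate it from overexpression, the change with overexpression was 0.22 (adjusted p = 0.715). In the overexpression experiment alone, where both altered arrays have the high ratio, it was called at 0.64 (adjusted p = 0.0173). That fit called 955 of the 5415 tested genes. KAR4 in the set1 deletion gave 335 and 301, against 436 and 338 in its wild type, and the change was -0.27 ± 0.24. The change of KAR4 in the overexpression strain minus that in the jhd2 deletion was 0.74 ± 0.31 (adjusted p = 0.406), and the change in the set1 deletion minus that in the overexpression strain was -0.91 ± 0.34 (adjusted p = 0.311). For STE18 the overexpression change minus the jhd2 deletion change was -1.41 ± 0.59 (adjusted p = 0.406).

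**Figure D2:**
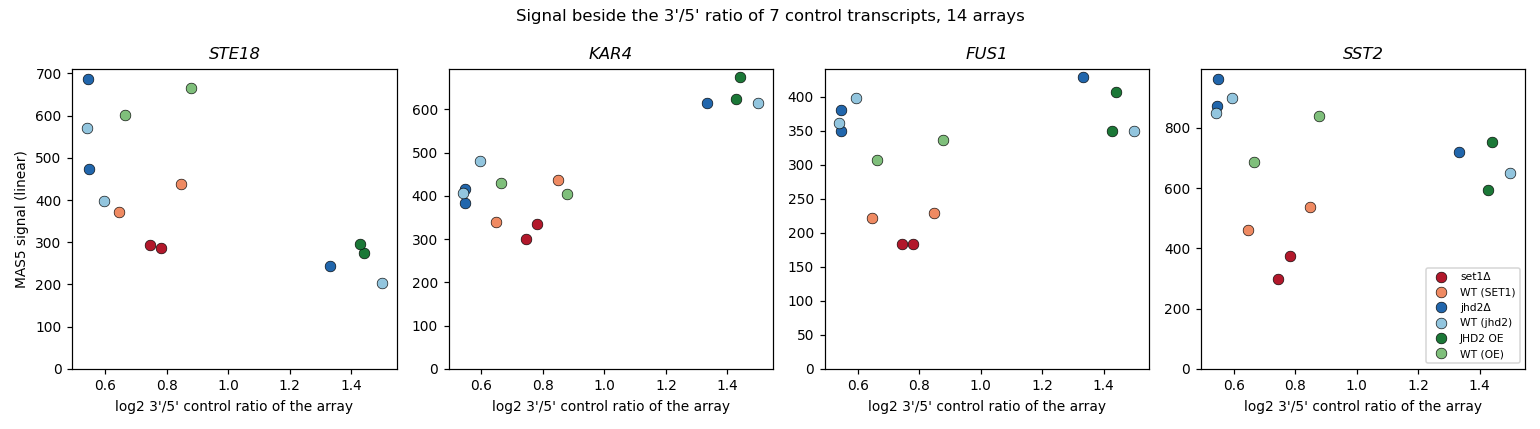
MAS5 signal on a linear axis from 0 (vertical) of STE18, KAR4, FUS1 and SST2 on the 14 arrays, against the log2 3'/5' ratio of 7 control transcripts on the same array (horizontal); colours mark the 6 groups. The 4 arrays at 1.33 or more hold KAR4 signals of 616 to 676 and STE18 signals of 203 to 296, and FUS1 is lowest on the 4 arrays of the SET1 experiment, whose ratios are 0.65 to 0.85.

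STE12, for the transcription factor at the end of the pathway, gave 457 and 527 in the overexpression strain, against 591.5 and 629 in its wild type. The groups did not overlap, and the log2 change of -0.31 ± 0.27 did not pass (adjusted p = 0.543). In the JHD2 deletion experiment STE12 gave 871, 899 and 659 in the deletion, against 881, 988 and 568 in the wild type, with the lowest value on replicate 3 in both strains. The set1 deletion gave 638 and 541, against 768 and 490 in its wild type, which overlap. The changes were 0.02 ± 0.22 and -0.06 ± 0.27.

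The scaffold gene STE5 gave 378 and 347 in the set1 deletion, against 471 and 413 in its wild type. The groups did not overlap, and the change of -0.28 ± 0.16 did not pass (adjusted p = 0.701). In the overexpression strain it gave 427 and 469, against 611 and 489.5 in its wild type (-0.29 ± 0.16, adjusted p = 0.328), again without overlap. Its change in the jhd2 deletion was 0.02 ± 0.13, with arrays of 458, 483 and 474, against 478, 511 and 415. FUS3, for the MAP kinase that Ste5 holds, was the steadiest member. It gave 568 and 552 in the overexpression strain, against 464 and 480.2 in its wild type (0.25 ± 0.13, adjusted p = 0.330), and changes of -0.11 ± 0.13 in the set1 deletion and -0.01 ± 0.11 in the jhd2 deletion.

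FAR1, for the cyclin-dependent kinase inhibitor that arrests cells in G1, varied between wild types. It gave 595 and 349 in the MATa-type wild type, against 692.5, 1004 and 947 in the wild type of the JHD2 deletion experiment and 601 and 582 in that of the overexpression experiment. The arrays overlapped, and the difference of -0.65 ± 0.24 did not pass (unadjusted p = 0.0167, adjusted p = 0.209). It was -1.04 without replicate 1 and -0.27 without replicate 2 of the SET1-experiment wild type, and did not pass in either fit. Its changes were 0.27 ± 0.28 in the set1 deletion, 0.05 ± 0.23 in the jhd2 deletion and 0.27 ± 0.28 in the overexpression strain, with overlapping groups in all 3.

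**Figure D3:**
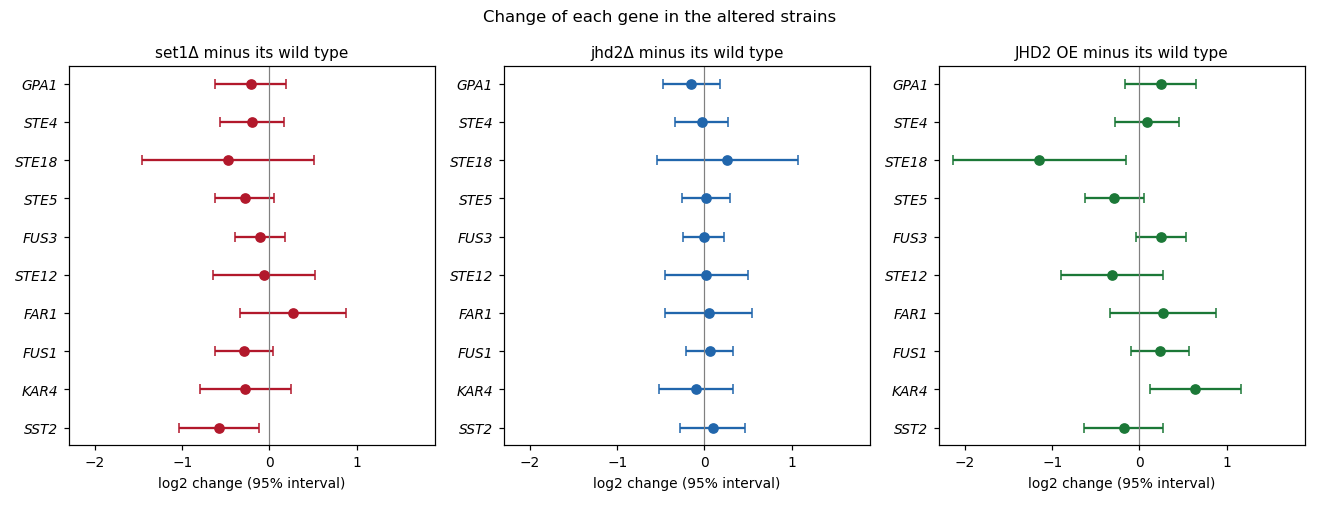
Log2 change (horizontal) of each of the 10 genes (vertical) in the set1 deletion, the jhd2 deletion and the overexpression strain, each minus the wild type of its experiment; points are limma estimates and bars are 95% intervals. No point passed an adjusted p under 0.05, and the widest intervals belong to STE18.

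No member was called in an altered strain by the main fit, the 6 group means over all 14 arrays. With overexpression, array weights called STE18 and KAR4 among 1055 genes, and the replicate number as a block called both among 1105. The block also called SST2 in the set1 deletion, among 110 genes, although numbers were not taken as pairs there. In the main fit for the set1 deletion 0 of 10 members were called by limma and 1, SST2, had an unadjusted p under 0.05. Of all tested genes 0.259% were called and 8.33% had such a p. The 9 members other than FAR1 were below 0, and the median of all 10 was -0.24 against 0.02 over all tested genes. Their groups did not overlap for 5 members, and 36.5% of all tested genes did not overlap. In the jhd2 deletion 0 of 10 were called and 0 had an unadjusted p under 0.05, against 0.0369% and 1.83% of all tested genes. The members' median was 0.02 and that of all genes -0.04, and groups did not overlap for 0 members and for 4.78% of all genes. Intervals for 9 of the members stayed within -0.52 and 0.55 there, and that of STE18 ran from -0.55 to 1.07. These intervals are from the unpaired fit and include the scatter between replicate numbers, which a paired fit sets aside. With the replicate number as a block, which pairs the arrays of this experiment, 4 genes were called in place of 2, and still 0 members. In the overexpression strain 0 of 10 were called and 2, STE18 and KAR4, had an unadjusted p under 0.05, against 0.517% and 19.4% of all tested genes. Above 0 were 6 members and below it 4, with a median of 0.16 against 0.00053 over all genes. Groups did not overlap for 8 members, where 63% of all tested genes did not overlap.

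The differences between these changes gave no call in the main fit either. The set1 deletion change minus the jhd2 deletion change was called for 0 of 10 members (1 with an unadjusted p under 0.05) and for 0.0739% of all genes. The overexpression change minus the jhd2 deletion change was called for 0 of 10 (2 with such a p) and for 0.0923% of all genes. The set1 deletion change minus the overexpression change was called for 0 of 10 (2 with such a p) and for 0.259% of all genes. The intervals leave room for sizeable differences, from -2.69 to 1.41 for the overexpression minus jhd2 deletion contrast over the 10 genes.

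Between the wild types 1 of the 10 members passed, in 1 of 2 comparisons. All 10 were below 0 in the MATa-type wild type minus the mean of the other wild types, STE4 by less than 0.01, with a median of -0.24 against -0.06 over all genes. In that comparison 1 of 10 was called and 3, FUS1, SST2 and FAR1, had an unadjusted p under 0.05, where 17% of all genes had such a p. Under other scalings STE4 and FUS3 turned above 0, with quantile normalization (0.03 and 0.07) and median centring (0.12 and 0.06). The wild type of the overexpression experiment minus that of the JHD2 deletion experiment, both of MATalpha type, was called for 0 of 10 members although 16.3% of all tested genes were called. FUS3, at -0.27 ± 0.12 (adjusted p = 0.146), was the 1 member with an unadjusted p under 0.05, where 32.6% of all tested genes had such a p. STE18 was at 0.82 ± 0.42 and FAR1 at -0.56 ± 0.26, and groups did not overlap for 6 members and for 54.6% of all genes. Quantile normalization called 2 members there, FUS1 (-0.43, adjusted p = 0.0297) and FUS3 (-0.45, adjusted p = 0.0205). Over all genes it called 387 higher and 473 lower, and it moves the median of all genes by -0.12. Under that scaling the FUS1 difference between the MATalpha-type wild types was as large as that between the MATa-type wild type and the others (-0.43 and -0.44).

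**Figure D4:**
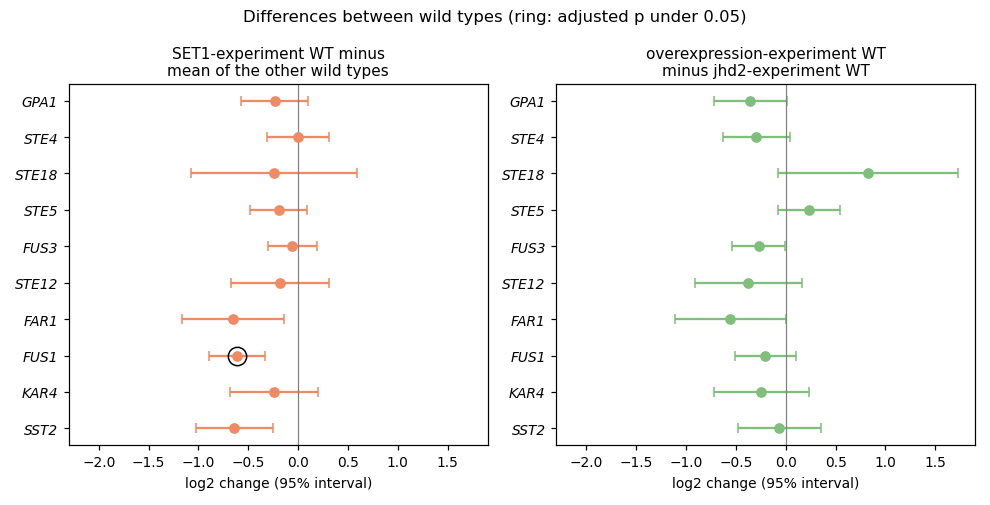
Log2 difference (horizontal, 95% interval as bars) of the 10 genes (vertical) for the SET1-experiment wild type minus the mean of the other wild types, and for the overexpression-experiment wild type minus the JHD2-deletion-experiment wild type. The ring marks FUS1 at -0.61, the 1 gene with an adjusted p under 0.05, and STE18 has the widest interval in both panels.

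Other genes of the pathway were taken from lists written by name. Over all tested genes an unadjusted p under 0.05 was reached by 8.33% in the set1 deletion, 1.83% in the jhd2 deletion and 19.4% with overexpression. The share was 17% between the MATa-type wild type and the others and 32.6% between the MATalpha-type wild types. These shares stand beside the counts of every list below. Of 8 genes of the kinase cascade and cell polarity, limma called 0 in any strain or between wild types. Such a p was reached by 4 of the 8 with overexpression, 1 between the MATalpha-type wild types and 0 in the other comparisons. Their medians were -0.05 in the set1 deletion, -0.07 in the jhd2 deletion and 0.08 with overexpression. The lowest and the highest of the 8 in the overexpression strain were KSS1 and STE7. KSS1, for the MAP kinase that shares the pathway with Fus3, was at -0.65 ± 0.18 with signals of 193 ± 19.8, against 302 ± 8.91 in the wild type (SD, n = 2 each), and STE7, for the kinase above both, was at 0.43 ± 0.16 with 324 ± 11.3, against 241 ± 25.2. Neither passed (adjusted p = 0.116 and 0.201). With the 3'/5' ratio as a covariate, in the fit that cannot separate it from overexpression, KSS1 was at -0.55 and STE7 at 0.26.

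Of 20 pheromone-induced targets other than the members, limma called 0 in any altered strain, and 4, 0 and 2 had an unadjusted p under 0.05 in the set1 deletion, the jhd2 deletion and the overexpression strain. In the set1 deletion 10 were above 0 and 10 below, with a median of 0.0025. FIG1, needed for efficient mating, was highest at 1.34 ± 0.53 (78.8 ± 17.7, against 31.2 ± 8.54 in the wild type, adjusted p = 0.474) and PRM4 lowest at -0.76 ± 0.29 (adjusted p = 0.459). In the jhd2 deletion 11 were above and 9 below, from PRM10 at -0.36 ± 0.24 to PGU1 at 0.65 ± 0.31. With overexpression 12 were above and 8 below, from PRM10 at -0.64 ± 0.29 to PRM2 at 1.09 ± 0.56 (82.2 ± 0.44, against 39.1 ± 7.81). In the MATa-type wild type minus the others 7 were above and 13 below, with a median of -0.22, 0 called by limma and 6 with an unadjusted p under 0.05. AGA1, for the anchor subunit of a-agglutinin, was lowest there and close to the threshold at -0.79 ± 0.17 (440 ± 107, n = 2, against 806 ± 148, n = 3, and 709 ± 109.8, n = 2, adjusted p = 0.0526). AGA1 was called without SET1-experiment wild-type replicate 2 (-1.04, adjusted p = 0.0396), without JHD2-experiment wild-type replicate 3 (-0.87, adjusted p = 0.0153) and without jhd2 deletion replicate 3 (adjusted p = 0.0478). Leaving out any 1 of the other arrays gave no call, and the difference was smallest, at -0.54 (adjusted p = 0.192), without SET1-experiment wild-type replicate 1. PRM4 was highest, at 1.03 ± 0.25 (adjusted p = 0.0703), and was called without either overexpression replicate (adjusted p = 0.0389 and 0.0385) but was at 0.76 (adjusted p = 0.285) without SET1-experiment wild-type replicate 2. Between the MATalpha-type wild types 1 of the 20, the pectinase gene PGU1, was called lower, at -1.43 ± 0.35 (adjusted p = 0.0161). This call was lost without overexpression-experiment wild-type replicate 2 (-0.79). PGU1 gave 11.2 and 27.6 in that wild type, where background was 10.1 to 10.2, so the lower value is near background. It gave 44.4 to 51.5 in the JHD2-experiment wild type. FIG2 was highest at 0.82 ± 0.26 (adjusted p = 0.0504), and was called without replicate 1 or 2 of the SET1-experiment wild type (adjusted p = 0.0467 and 0.0468) or of the JHD2-experiment wild type (0.0296 and 0.0479). With 1 array left out it ranged from 0.48, without JHD2-experiment wild-type replicate 3, to 1.01, with adjusted p up to 0.313.

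The remaining lists gave calls through mating-type-specific genes. Of 7 negative regulators limma called 0 in any altered strain, with 1, 0 and 1 at an unadjusted p under 0.05 in the set1 deletion, the jhd2 deletion and the overexpression strain. AFR1, for a regulator of receptor signalling, was at -0.60 ± 0.54 in the set1 deletion and 0.68 ± 0.54 with overexpression. The 2 regulators called between the MATa-type wild type and the others, BAR1 and ASG7, are among the a-specific genes from which these names were given. Of 5 haploid-specific genes (AXL1 is also among the 20 targets) limma called 0, and 1, 0 and 1 had such a p in the same strains and 3 in the MATa-type wild type against the others. All 5 were below 0 in that wild type, with HO, the endonuclease gene of mating-type switching, lowest at -1.41 ± 0.36 (adjusted p = 0.0913). This value depends on the SET1-experiment wild-type arrays, being -2.07 without replicate 1 (adjusted p = 0.0304) and -0.75 without replicate 2 (adjusted p = 0.37). HO was at 0.87 ± 0.43 in the set1 deletion, from 0.22 to 1.53 with 1 array left out, and at -0.68 ± 0.43 with overexpression, from -1.02 to -0.33. Of MCM1 and 4 SIR genes limma called 0 in the 5 comparisons with a wild type, with 1 at such a p with overexpression and 2 between the MATalpha-type wild types. The 4 meiosis genes gave 0 calls as well, with 1 at such a p, between the MATalpha-type wild types.

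Most calls within the lists were of mating-type-specific genes. Among 6 receptor and pheromone genes, all 6 were called between the MATa-type wild type and the others, 3 higher and 3 lower, and so were all 7 a-specific genes (higher) and all 5 alpha-specific genes (lower). The wild types were named MATa-type and MATalpha-type from these same genes, so these calls were fixed beforehand and add no support to the names. In the set1 deletion 2 alpha-pheromone genes were called higher, both near background. MF(ALPHA)1 gave 28.4 and 24.1 in the deletion, against 13.4 and 11.8 in its wild type (log2 change 1.06 ± 0.13, adjusted p = 0.00397), and MF(ALPHA)2 gave 36.2 and 37.2, against 15.3 and 19.4 (1.09 ± 0.17, adjusted p = 0.0199). Their wild-type signals were 1.16 to 2.04 times background, and on the MATalpha-type arrays the lowest signal of either gene was 2849. The alpha-specific gene AFB1 was called lower, with 140 and 163, against 335 and 361 (-1.20 ± 0.12, adjusted p = 0.000618), while limma called 0 of 7 a-specific genes. These 3 calls were lost in a fit to the 4 arrays of the SET1 experiment alone. That fit called 0 genes, not even the deleted SET1, so it cannot decide whether these 3 calls hold. In the jhd2 deletion and the overexpression strain limma called 0 of the 6, 7 and 5 genes of these lists. At an unadjusted p under 0.05 was 1 gene in the jhd2 deletion, the a-pheromone gene MFA2 on 2 of the lists, and 0 with overexpression. In the wild type of the overexpression experiment against that of the JHD2 deletion experiment, MF(ALPHA)2 and STE3 were called lower and MFA2 and AGA2 higher. Of the latter genes AGA2 was near background and MFA2 was at low signal. AGA2 gave 33.9 and 22.0 in the overexpression-experiment wild type, against 9.28, 5.36 and 13.7 in the JHD2-experiment wild type, where 1 array was below background. MFA2 gave 53.9 and 44.9, against 19.2, 24.9 and 32.6, which were 2.11, 2.78 and 4.03 times background.

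The genes whose profiles over the 14 arrays lay closest to those of the 4 most variable members were found from centred log2 signals, by the root mean square difference. For SST2 the closest of all tested genes was FUS1, at 0.23 log2 units, followed by NUP82 and SEC8 at 0.24 each. For FUS1 they were SEC8 at 0.14, SAS3 at 0.18 and TIM54 at 0.18. For KAR4 they were COG3, GRX4 and RUP1 at 0.12, 0.12 and 0.13, and for STE18 GMC1, VPS51 and DOG1 at 0.24 each. The arrays share experiment and quality, so this likeness is a description.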

How the data were processed

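Each deposited value is the linear intensity of a probe set, which the authors computed with MAS5, per the submitters' processing notes, with no version named. Trimmed by 2% at either end, the means of the 10928 values ran from 500.2 to 500.3 over the arrays. Probe sets were named through platform annotation and a RefSeq gene table of assembly R64, the brightest standing for a gene with several (47 genes). Genes whose mean log2 value exceeded the 95th percentile of 1746 fission yeast probe-set means were tested (34 removed). Values under 1 were set to 1 before log2.

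The 6 group means of each gene were estimated over the 14 arrays with limma 3.58.1 in R 4.3.3, using an intensity trend. Arrays were not paired in this main fit, which gave the SEs and intervals. P-values are two-sided and adjusted by the Benjamini-Hochberg method over all tested genes within a comparison, and an adjusted p under 0.05 was called. The fit was also run on simulated data with independent noise on each array. That simulation held neither shared deviations of same-numbered arrays nor the 3'/5' split, so it cannot show how the fit deals with them. The number of arrays limits the precision. Named genes are all 10 members, list members called in a comparison, the highest and lowest of each list, and the 3 genes closest in profile to members whose group means span 1 log2 unit or more. The members and lists were chosen with earlier results of these data known. Across genes, arrays of the same number deviated together, with correlations of 0.64, 0.62 and 0.69 in the JHD2 deletion experiment, whose numbers were taken as pairs. The value was 0.73 for the set1 deletion and its wild type, and -0.14 with overexpression. Alternatives were other normalizations, filters, offsets, weights, blocks, subsets of arrays and leaving out each array. No sequences were used here.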

Additional observations from a re-analysis of the deposited data

How the results depend on the processing

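Values are log2 changes or differences unless called counts, and the comparison is named by its first strain. The settings added after the data had been seen are the fit without both replicate 3 arrays, the fit with the 3'/5' ratio and the crossed block. The cause of a change was not tested unless stated.

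For the set1 deletion, 14 genes were called, against 22 with a stricter filter at the 99th percentile, 28 with 32 added before log2, 27 with no intensity trend, 26 with the mean of a gene's probe sets, 0 in its own experiment alone, 38 without both replicate 3 arrays and 42 with the 3'/5' ratio. For the jhd2 deletion, 2 genes were called, against 1 each with quantile normalization, median centring, no trend and its own experiment alone, 231 with array weights and 169 without both replicate 3 arrays. For overexpression, 28 genes were called, against 121 with quantile normalization, 13 with median centring, 11 with no trend, 1055 with array weights, 955 in its own experiment alone and 698 without both replicate 3 arrays. These last 3 settings each called 2 members, STE18 and KAR4.

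For the SET1-experiment wild type, 64 genes and 1 member were called. Quantile normalization called 99 genes, array weights 39, wild-type arrays alone 42, the JHD2-experiment wild type alone as comparator 21 and the overexpression-experiment wild type alone 439. Those settings, median centring and the replicate block as a random effect called 0 members, with FUS1 at -0.44 (adjusted p = 0.0768), -0.63 (0.114), -0.61 (0.194), -0.72 (0.0597), -0.51 (0.061), -0.50 (0.0586) and -0.61 (0.0711) in the same order. Without both replicate 3 arrays 531 genes were called and with the 3'/5' ratio 182, each with 2 members, FUS1 and SST2. Between the MATalpha-type wild types 880 genes and 0 members were called. Array weights called 1773 genes and 2 members (FUS3 and STE12). Quantile normalization called 387 genes higher and 473 lower, with 2 members (FUS1 and FUS3). Median centring called 436 higher and 558 lower, with 1 member (FUS3). Wild-type arrays alone called 465 genes, and the 3'/5' ratio 1366 genes and 1 member (STE18). For the overexpression minus jhd2 deletion change, 5 genes became 8 with 32 added or no trend, 870 with array weights (2 members), 352 without both replicate 3 arrays (1 member) and 13 with the ratio. For the set1 deletion minus overexpression change, 14 genes became 27 with quantile normalization, 26 with no trend, 25 with array weights, 252 without both replicate 3 arrays (1 member) and 23 with the ratio.

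With the replicate number as a block, 110 genes were called for the set1 deletion, with 1 member (SST2, adjusted p = 0.0251), 4 for the jhd2 deletion, 1105 for overexpression with 2 members (STE18 and KAR4), 10 for the set1 minus jhd2 deletion change, 544 for the overexpression minus jhd2 deletion change (2 members) and 585 for the set1 deletion minus overexpression change (2 members). Numbers were taken as pairs in the JHD2 deletion experiment, which has 3 of them, and there the block changed no call of a member. The other experiments have 2 numbers each, which give 1 correlation, and no label says that a number marks a shared batch. SST2 differed by -0.52 and -0.64 between same-numbered arrays of the set1 deletion and its wild type. Same-numbered arrays correlated at 0.73 for the set1 deletion and its wild type, and at -0.14 with overexpression. Crossing the numbers in the overexpression experiment gave 1175 genes and 2 members.

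Signs turned among differences near 0. In the jhd2 deletion STE4 and FUS3 were at 0.013 and 0.055 with quantile normalization and at 0.038 and 0.061 with median centring. With array weights STE5, STE12, FUS1 and FAR1 were there at -0.085, -0.076, -0.0049 and -0.071, and without both replicate 3 arrays STE5, STE12 and FUS1 were at -0.072, -0.077 and -0.057. STE12 was at -0.020 with the ratio. With the ratio, which that fit cannot separate from overexpression, overexpression gave GPA1 -0.016, STE4 -0.18, STE12 0.073, SST2 0.066 and AFR1 -0.12. For the SET1-experiment wild type STE4 was at 0.031 with quantile normalization, 0.12 with median centring, 0.036 with array weights, 0.15 against the overexpression-experiment wild type, 0.045 without both replicate 3 arrays and 0.031 with the ratio. FUS3 was at 0.072 with quantile normalization, 0.058 with median centring and 0.075 against the overexpression-experiment wild type, where STE12 was at 0.0068. STE18 was at 0.17 against the JHD2-experiment wild type. In the set1 deletion minus overexpression change STE18 was at -0.19 with the ratio.

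Leaving out 1 array at a time, the genes called ranged from 3 to 24 for the set1 deletion, 1 to 24 for the jhd2 deletion, 5 to 157 for overexpression, 41 to 141 for the SET1-experiment wild type (0 to 2 members), 257 to 1061 between the MATalpha-type wild types, and 4 to 8, 4 to 65 and 6 to 18 for the set1 minus jhd2 deletion, overexpression minus jhd2 deletion and set1 deletion minus overexpression changes. Members called stayed at 0 in all but the SET1-experiment wild type. In the set1 deletion FAR1 ranged from -0.11 to 0.66, GPA1 from -0.44 to 0.0093 and STE12 from -0.39 to 0.26. In the jhd2 deletion FAR1 ranged from -0.11 to 0.17, FUS1 from -0.019 to 0.13, FUS3 from -0.083 to 0.036, KAR4 from -0.30 to 0.063, SST2 from -0.050 to 0.21, STE12 from -0.22 to 0.18, STE18 from -0.15 to 0.67, STE4 from -0.16 to 0.074 and STE5 from -0.068 to 0.083. With overexpression FAR1 ranged from -0.0071 to 0.55. For the SET1-experiment wild type FUS3 ranged from -0.15 to 0.035, STE12 from -0.50 to 0.14 and STE4 from -0.12 to 0.12. Between the MATalpha-type wild types SST2 ranged from -0.21 to 0.080, and in the set1 minus jhd2 deletion change KAR4 from -0.36 to 0.030.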
